A study of Mus musculus with 3 samples.

Results

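The genes described here are 10 that encode the contractile machinery of skeletal muscle, or that serve it directly: Acta1, Tnnt1, Tnnt3, Myh1, Myh2, Myh4, Myl1, Ttn, Ckm and Ryr1. They were taken by symbol from a table of counts for 39179 genes, and all 10 were found. The counts come from RNA immunoprecipitations of white fat. All mice were C57BL/6, 16 weeks old, carried a Flag-FTO transgene and had been fasted overnight before the fat was lysed. FTO is a demethylase that acts on adenosine in RNA, and the Flag tag is a short peptide that an antibody recognises. The 2 Flag-IP libraries (Flag-IP 1 and Flag-IP 2) hold RNA recovered with the anti-Flag M2 antibody, and the single IgG-IP library holds RNA recovered with IgG, an antibody without that target. The labels do not name the promoter of the transgene, say whether the libraries came from separate or pooled animals, or include mice without the transgene. The p-values therefore measure the spread between the 2 Flag-IP libraries, which may be technical, and the IgG-IP library has no replicate.

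In a muscle fibre the contractile unit is the sarcomere. Thick filaments of myosin pull on thin filaments of actin, and troponin on the thin filament holds the pull back until calcium is released. Titin links the thick filament to the end of the sarcomere, RYR1 is the channel that releases calcium from the internal store, and muscle creatine kinase rebuilds the ATP that myosin spends. These genes are known from muscle fibres and not as products of fat cells. In bulk tissue, fewer cells of a type and less RNA per cell cannot be told apart. The comparison made here is between RNA recovered with anti-Flag and RNA recovered with IgG. Its fold changes are therefore not a measure of cell number or of expression.

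Of the 10 genes, 3 were higher in the Flag-IP libraries (Tnnt3, Ckm and Ryr1), 1 was lower (Myl1), 5 did not pass the test (Tnnt1, Myh1, Myh2, Myh4 and Ttn), and Acta1 had too few counts to be tested. Calls were made by edgeR with the quasi-likelihood method, at a p adjusted after Benjamini and Hochberg under 0.05, over all 17587 genes tested, of which 11.3% were called, 5.58% as higher and 5.77% as lower. The 9 tested members had a median log2 fold change of 0.20, with 5 of 9 above 0, against a median of 0.03 over all tested genes. All 3 increases lost their call once a trend on GC content was removed in edgeR, while the decrease of Myl1 kept it. DESeq2 called 0 members in either direction, with no adjusted p for 7 of 9. Only Ttn and Ryr1 could have been called there. Of the 1903 genes to which DESeq2 gave an adjusted p, 14.5% were called. The members held 578 and 525 counts in the first and second Flag-IP library and 544 in IgG-IP, and every triplet of counts below is in that order. That is 0.0244%, 0.0224% and 0.0242% of the counts that remain without the 28 genes above 100000 counts in some library, which took 97.0% to 97.6% of the 74176962 to 98227791 counts of a library. The median tested gene had 24 to 26 counts, so depth limits what can be seen of most members.

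**Figure D1:**
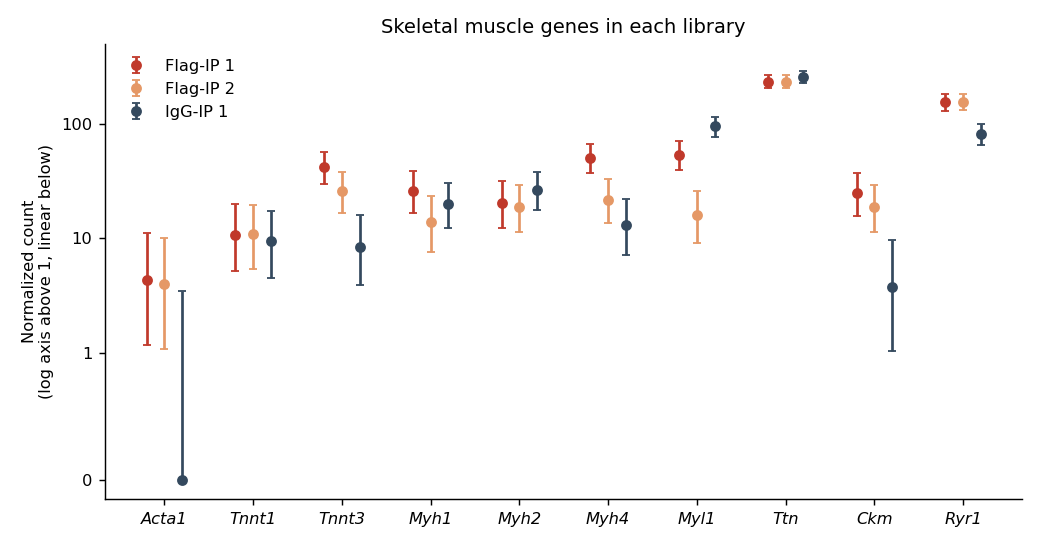
Normalized count of each of the 10 genes (vertical axis, logarithmic above 1 and linear below) by library; bars are exact 95% Poisson intervals, which cover counting error only. Tnnt3, Ckm and Ryr1 lie higher in both Flag-IP libraries than in IgG-IP, Myl1 lies lower in both with the Flag-IP libraries far apart, and Acta1 has 0 counts in IgG-IP.

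The 3 myosin heavy chain genes need care, because they are close copies in a row on chromosome 11 and short reads can match more than 1 of them. Of the distinct stretches of 36 bases in their annotated transcripts, 38.8% for Myh1, 31.4% for Myh2 and 26.5% for Myh4 also occurred in a transcript of some other gene. Myh1 shared 24.2% of its stretches with Myh2 and 15.5% with Myh4. The longest coding run that is the same in all 3 genes has 140 bases. It is shown here with 30 bases to either side, from the coding sequences of GENCODE M21 (GRCm38, plus strand), coding positions 1519 to 1718 in each, counted from the start codon. Capitals mark the 17 positions where the 3 genes are not all alike. A read that falls inside the lower-case run could come from any of them.
Myh1 (chr11:67207522-67208983, exons 15 to 16): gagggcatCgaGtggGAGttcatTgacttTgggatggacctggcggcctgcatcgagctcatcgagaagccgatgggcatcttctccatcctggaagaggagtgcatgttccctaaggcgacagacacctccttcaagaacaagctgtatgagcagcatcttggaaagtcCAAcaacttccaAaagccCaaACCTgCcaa
Myh2 (chr11:67180877-67181165, exons 14 to 15): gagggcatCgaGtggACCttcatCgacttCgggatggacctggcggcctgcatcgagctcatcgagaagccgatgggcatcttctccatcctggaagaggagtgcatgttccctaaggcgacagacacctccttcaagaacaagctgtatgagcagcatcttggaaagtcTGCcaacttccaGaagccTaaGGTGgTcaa
Myh4 (chr11:67246473-67248576, exons 14 to 15): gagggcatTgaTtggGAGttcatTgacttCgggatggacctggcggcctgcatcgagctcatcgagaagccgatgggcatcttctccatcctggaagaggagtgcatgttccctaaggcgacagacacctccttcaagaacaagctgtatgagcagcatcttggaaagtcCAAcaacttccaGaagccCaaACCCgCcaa
How such reads were assigned by the authors is not given in the sources used here, so the split of counts between these 3 genes is uncertain.

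On the thin filament, the skeletal actin gene Acta1 (chromosome 8, 123891769 to 123894751; all positions are GRCm38, GENCODE M21) had 4, 4 and 0 counts. Actin is among the most abundant messenger RNAs of a muscle fibre. The normalized counts, which are counts scaled to a common effective library size, were 4.31, 3.96 and 0, and a count of 0 in the IgG-IP library allows up to 2.83. The intervals of the Flag-IP values begin at 1.17 and 1.08, below both of these limits, so a difference was not detectable at this depth and no fold is given. The gene lies inside the span of Gm20388, which is annotated on the opposite strand from 119910841 to 124345722 and had 56326, 43668 and 32242 counts. The strand setting of the counting is not given, so reads of Acta1 could have gone to either gene. The 71 protein-coding genes inside that span had a median of 4.92 normalized counts per kilobase of exon, against 4.23 for the 21155 other protein-coding genes.

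Troponin T ties troponin to tropomyosin on the thin filament, and its slow and fast forms have genes of their own. The slow form, Tnnt1 (chromosome 7, 4504570 to 4516382), had 10, 11 and 10 counts. Its normalized counts were 10.8, 10.9 and 9.42, and the log2 fold change was 0.20 ± 0.92 (SE; 2 Flag-IP libraries against 1 IgG-IP library throughout). The 3 libraries were close together, but 1 SE to either side covers 0.607-fold to 2.17-fold, so a change of that size was not detectable at this depth. The fast form, Tnnt3 (chromosome 7, 142498836 to 142516009), had 39, 26 and 9 counts, or 42.0, 25.8 and 8.48 normalized. Both Flag-IP libraries lay above IgG-IP, and the intervals of Flag-IP 2 (16.8 to 37.7) and IgG-IP (3.88 to 16.1) did not meet. On the log2 scale the difference was 1.98 ± 0.60 (SE), or 3.94-fold, at an edgeR adjusted p = 0.0161. The noncoding gene Gm14492 overlaps Tnnt3 on the other strand, though no exons overlap. With 16, 18 and 5 counts it too was lowest in IgG-IP.

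On the thick filament, the myosin heavy chains are the motor proteins, and each fast fibre type uses its own. Myh2, the IIa form (67171027 to 67197517), had 19, 19 and 28 counts and differed by -0.42 ± 0.54 (SE) on the log2 scale. Myh1, the IIx form (67200052 to 67224575), had 24, 14 and 21, so that the Flag-IP libraries lay on either side of IgG-IP, and the fitted log2 value was -0.003 ± 0.58 (SE). Neither passed the test. Myh4, the IIb form (67238029 to 67260446), had 47, 22 and 14 counts, or 50.6, 21.8 and 13.2 normalized. Both Flag-IP libraries were above IgG-IP, yet the Flag-IP libraries stood further from each other (1.15 on the log2 scale) than Flag-IP 2 stood from IgG-IP (0.65). The fitted log2 fold change of 1.44 ± 0.54 (SE) did not pass, with an edgeR adjusted p = 0.0606, and the range over the other settings tried was 0.0481 to 0.529. Myh1 is also overlapped by the antisense gene Gm12300 (18, 12 and 28 counts), whose exons meet its own, and Myh2 by 9430073C21Rik (2, 4 and 2).

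Myl1, which encodes the alkali light chain of fast myosin (chromosome 1, 66924295 to 66945404), was the member that was lower in Flag-IP. It had 50, 16 and 101 counts, or 53.8, 15.8 and 95.1 normalized. IgG-IP was above both Flag-IP libraries, and the Flag-IP libraries differed from each other by 1.65 on the log2 scale, the widest gap among the 9 tested members. Their intervals, 40.0 to 71.0 and 9.06 to 25.7, did not overlap. On the log2 scale the difference was -1.46 ± 0.34 (SE), at an edgeR adjusted p = 0.000781, and it was -0.80 with Flag-IP 1 alone and -2.45 with Flag-IP 2 alone. The model shares its spread between genes, so this gap of Myl1 does not enter its standard error. A pseudogene, Mylf-ps, holds 13.7% of the 36-base stretches of Myl1 and was not analysed here. Under none of the settings that gave an adjusted p did Myl1 lose its call, with a range of 4.31e-06 to 0.00611, but all of these were edgeR fits. DESeq2 gave it no adjusted p, and there 0 members were lower even at an unadjusted p under 0.05.

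Titin, the molecular spring encoded by Ttn (chromosome 2, 76703980 to 76982547), had the most counts of any member, 218, 236 and 271. The normalized counts of 234.8, 233.7 and 255.3 were nearly level, and the log2 fold change was -0.12 ± 0.23 (SE), so 1 SE to either side covers 0.784-fold to 1.07-fold. Gm13938, antisense within the Ttn span, had 57, 74 and 67 counts. Levels of different genes are compared per length below, since Ttn has 116825 bases of exon and Acta1 has 1536.

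Ckm, the muscle creatine kinase gene (chromosome 7, 19404776 to 19422841), had 23, 19 and 4 counts, or 24.8, 18.8 and 3.77 normalized. The Flag-IP libraries were alike and IgG-IP was far below them. Its log2 fold change of 2.49 ± 0.84 (SE), 5.62-fold, passed with an edgeR adjusted p = 0.0334, and it rests on 4 counts in IgG-IP. Ckm met the count filter only through the Flag-IP libraries, where it is high, so its call is not independent of that filter. The antisense gene A930016O22Rik, which holds 12.3% of the 36-base stretches of Ckm, had 7, 7 and 0 counts. Ryr1 (chromosome 7, 29003344 to 29125179) had 144, 158 and 86 counts, or 155.1, 156.5 and 81.0 normalized. Both Flag-IP libraries had nearly the same value and lay above IgG-IP, whose interval of 64.8 to 100 was well below theirs (130.8 to 182.6 and 133.0 to 182.9). On the log2 scale the difference was 0.94 ± 0.28 (SE), or 1.92-fold, at an edgeR adjusted p = 0.0114. The antisense gene Gm26604, which holds 3.04% of the 36-base stretches of Ryr1, had 4, 12 and 0 counts, and the microRNA gene Mir1963 inside Ryr1 had 0 in all 3 libraries. Ryr1 lost its call in the likelihood ratio test with a common dispersion (adjusted p = 0.0925) and with DESeq2 (adjusted p = 0.174).

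By a rule of size that needs no test, at least 2-fold apart from IgG-IP in both Flag-IP libraries, 2 of the 9 tested members were higher (Tnnt3 and Ckm) and 0 were lower. Over all tested genes 9.07% were higher and 4.24% lower by this rule. The members varied between the Flag-IP libraries as other genes did, with a median absolute difference of 0.36 on the log2 scale for the 9 tested members and 0.36 for all tested genes.

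**Figure D2:**
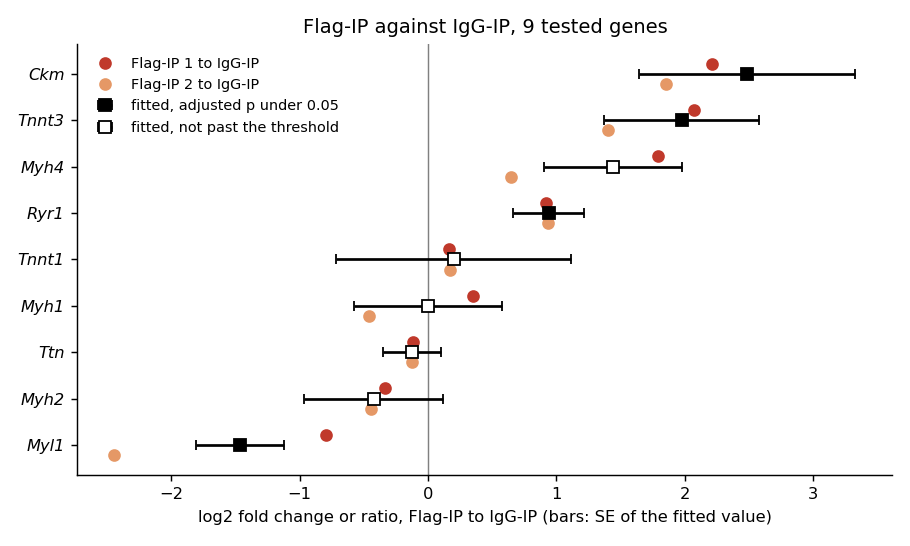
Log2 fold change of Flag-IP against IgG-IP for the 9 tested genes (squares, bars are 1 SE), with the log2 ratio of each Flag-IP library to IgG-IP (circles). Every gene except Myh1, called or not, has both circles on 1 side of 0, and the circles of Myl1 and Myh4 lie far apart.

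Counts followed the length of the gene, introns included. Across 14920 tested protein-coding genes, which share the same libraries and are not replicates, Spearman's rho between mean normalized count and genomic span was 0.87, and between count and exon length it was 0.50. Over the 10 members these values were 0.77 and 0.59. The median tested protein-coding gene had 0.852 normalized counts per kilobase of span, with quartiles of 0.709 and 1.08, and 7 of the 10 members lay between those quartiles. Ttn had 0.866, Tnnt1 0.877, Ckm 0.874, Acta1 0.924, Myh2 0.826, Myh1 0.809 and Ryr1 1.07 normalized counts per kilobase of span. These 7 are listed because they lie between the quartiles, so their narrow range follows from the selection. Over all 10 members the density ran from 0.809 for Myh1 to 2.60 for Myl1, and the mean counts from 2.67 for Acta1 to 241.7 for Ttn. This choice of length was made after the data were seen.

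The other 3 members lay above the upper quartile in density: Myh4 with 1.27, Tnnt3 with 1.48 and Myl1 with 2.60 normalized counts per kilobase of span. By library, Myl1 had 2.55, 0.750 and 4.51 normalized counts per kilobase of span. Tnnt3 had 2.45, 1.499 and 0.494, and Myh4 had 2.26, 0.972 and 0.588. In each of these 3 genes at least 1 library was inside or below the range in which the central tested genes lay, and another was well above it. Per kilobase of exon the order was different. Myl1 (26.5 normalized counts per kilobase) and Tnnt3 (16.1) came first, followed by Ryr1 (5.99), Ckm (5.42), Myh4 (4.74), Tnnt1 (4.70), Myh1 (3.12), Myh2 (3.07), Ttn (2.07) and Acta1 (1.79). The median tested protein-coding gene had 6.31 per kilobase of exon, so 8 members were below it. The ranges of neighbours in this order over the 3 libraries overlapped, except those of Tnnt1 and Myh1 and those of Myh2 and Ttn. Within each library Tnnt3 also lay above Ryr1, although their ranges met.

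**Figure D3:**
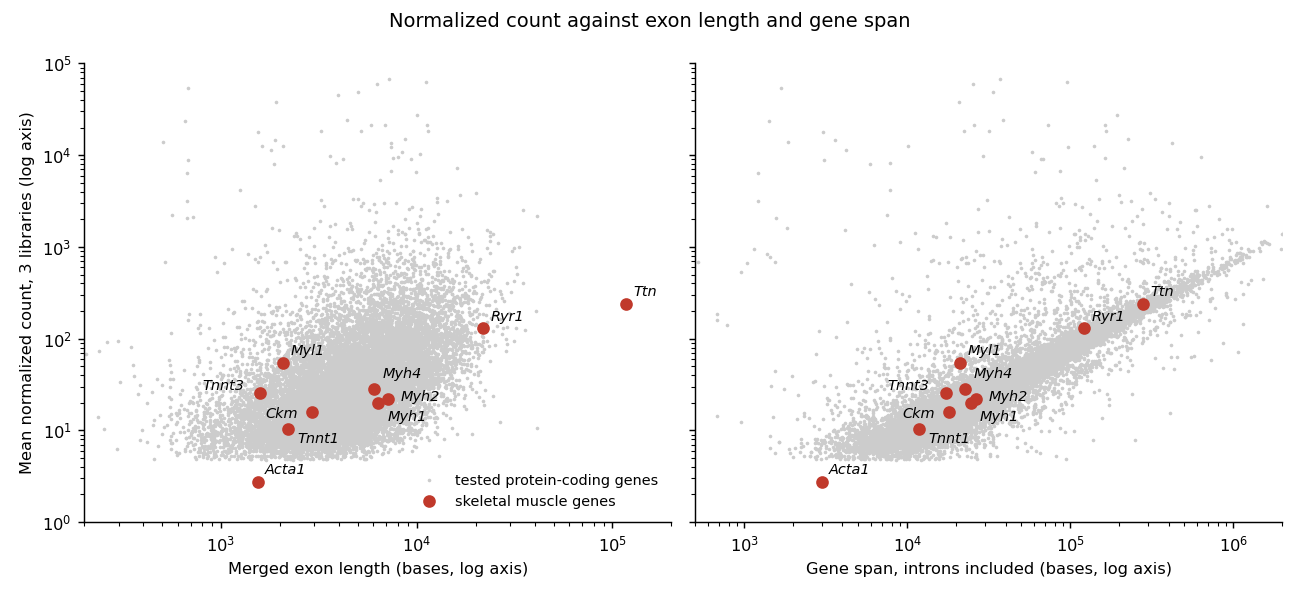
Mean normalized count over the 3 libraries (logarithmic axis) against merged exon length on the left and gene span with introns on the right (logarithmic axes), for tested protein-coding genes in grey and the 10 members in red. On the right most members lie on the narrow diagonal band of all genes, with Myl1 above it, and on the left Ttn lies far to the right of the cloud.

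As a check of the tissue label, 12 of 15 white adipocyte markers had more normalized counts per kilobase of span than the upper quartile of tested genes, with a list median of 1.95 against 0.90 for the members. Lpl, the lipase of fat capillaries, had 96.9 per kilobase of span, and Aqp7, the glycerol channel, had 85.9. These densities are means over the Flag-IP and IgG-IP libraries. Aqp7 had 2081, 1615 and 184.6 normalized counts, so its density rests mostly on the Flag-IP libraries. Lpl had 3347, 1977 and 2511. Adipoq, which marks fat cells, had 18, 14 and 3 counts and 1.05 per kilobase of span, inside the quartiles. Summed over the list, adipocyte markers had 5972, 4065 and 3213 normalized counts and the muscle members 622, 520 and 512. Lpl and Aqp7 carried most of the adipocyte sum: the other 13 markers held 544.9, 473.4 and 517.1, about as much as the members. No gene of either list was at 0 in all 3 libraries, but this holds for most protein-coding genes. Of the 21155 outside the span of Gm20388, 3.71% were at 0 in all 3. Of the 14 tested adipocyte markers, 3 were higher (Plin1, Plin4 and Aqp7), 1 was lower (Cd36) and 10 did not pass, where 5.58% of all tested genes were higher and 5.77% lower. Plin4, with 30, 34 and 4 counts, met the count filter only through the Flag-IP libraries.

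GC content moved with the comparison. Among 9084 protein-coding genes that averaged 20 counts or more, the lowest 10th by transcript GC had a median log2 fold change of -0.72 and the highest a median of 0.77. The members were richer in GC than most genes, with a median of 53.4% against 48.8% for all protein-coding genes. Read from the trend over all these genes, the log2 fold change at the GC content of Ryr1 (58.0%) was 0.73, against the 0.94 measured. For Tnnt3 (53.2%) the trend gave 0.40 against 1.98, and for Ckm (54.0%) 0.47 against 2.49. For Myl1 (48.9%) it gave 0.02 against -1.46, and Ttn (47.4%) lay on the trend, at -0.10 against -0.12. The distance from the trend was under 1 SE of the gene's own fold change for Ryr1 and Ttn and over 2 SE for Tnnt3, Ckm and Myl1. The spread of single genes about the trend was not tested, and Ckm, which averaged 15.3 counts, is not among the genes the trend was drawn from.

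With the GC trend removed in the fit, 0 of 9 members were higher by edgeR at an adjusted p under 0.05, 2 were higher at an unadjusted p under 0.05, and Myl1 remained lower. The log2 fold changes became 1.54 ± 0.61 (SE) for Tnnt3 (adjusted p = 0.156), 1.99 ± 0.85 (SE) for Ckm (adjusted p = 0.214), 0.17 ± 0.27 (SE) for Ryr1 (adjusted p = 0.862) and -1.52 for Myl1 (adjusted p = 0.000578). In that fit 2.17% of all tested genes were called higher, against 5.58% without the correction. The median log2 fold change of all genes was moved by -0.52 under scaling to total counts, and under that scaling too 0 members were higher by edgeR, with 2 at an unadjusted p under 0.05. There 1.94% of all tested genes were called higher.

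**Figure D4:**
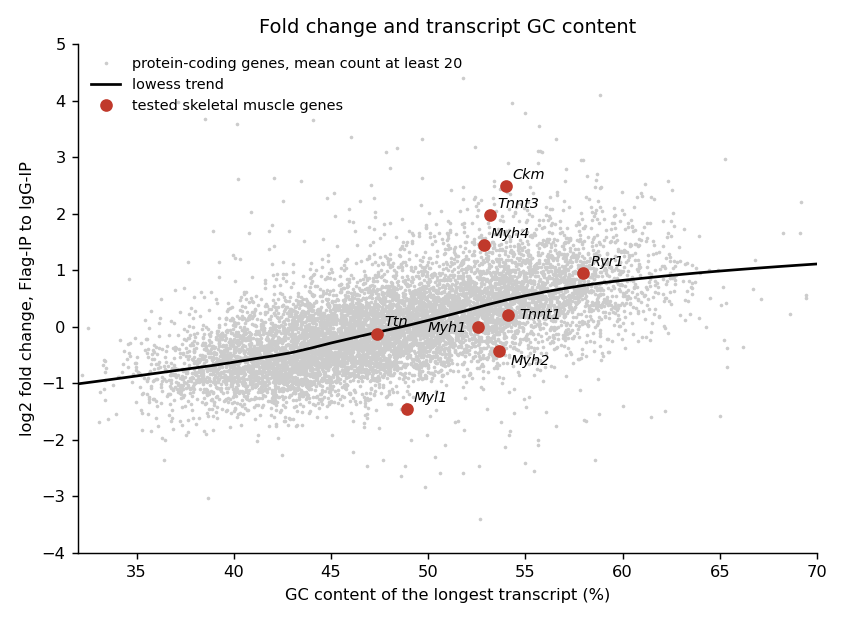
Log2 fold change of Flag-IP against IgG-IP (vertical axis) against GC content of the longest transcript (horizontal axis, %), for protein-coding genes averaging 20 counts or more in grey and the 9 tested members in red; the line is a lowess trend. Ryr1 and Ttn lie close to the line, Ckm and Tnnt3 above it and Myl1 below it.

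The other genes of the muscle fibre, 122 genes from 7 lists on filaments, Z disc, calcium release, energy supply, membrane and muscle identity, were counted by the same test. Of 100 tested, 9 were higher (9.0%), 7 were lower (7.0%) and 84 did not pass, and the median log2 fold change was 0.39. Among all 17587 tested genes, this fit called 5.58% higher and 5.77% lower, and the middle log2 value was 0.03. Whether these genes, or any single list below, differ from those shares was not tested. The 9 higher genes had transcript GC of 53.8% to 56.5%, and the 7 lower genes 36.8% to 50.7%. With the GC trend removed 0 were higher by edgeR and 1, Myom1, was lower, in a fit that called 2.17% of all tested genes higher and 2.12% lower. Under scaling to total counts 0 were higher and 15 were lower (15.0%), where 1.94% of all tested genes were called higher and 17.1% lower.

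Within the thick filament list, 3 of 18 tested genes were higher and 2 lower, Myl1 included. The embryonic myosin heavy chain gene Myh3 had 34, 33 and 10 counts (1.86 ± 0.59 on the log2 scale, SE), and shares sequence with the adult forms above. Mybpc2, the fast myosin-binding protein C gene, had 51, 46 and 19 counts (1.48 ± 0.46). Of the M-band proteins that cross-link thick filaments, Myom3 was higher with 53, 74 and 29 counts (1.25 ± 0.39) and Myom1 lower with 57, 87 and 142 (-0.85 ± 0.28). Members of the same structure thus lay on both sides of 0.

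In the thin filament list 1 of 12 tested genes passed, Tnnt3 itself, although 11 of 12 fold changes were above 0 and the median was 0.70. Nebulin (Neb), the ruler of the thin filament, had 167, 151 and 175 counts and a log2 fold change of -0.003 ± 0.24 (SE). In the list of titin, Z disc and M band genes 1 of 19 passed: Des, the intermediate filament gene of muscle cells, had 18, 28 and 4 counts (2.61 ± 0.81). With 4 counts in IgG-IP, Des met the count filter only through the Flag-IP libraries. Des is also made by smooth muscle cells.

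Among genes of excitation and calcium release, 2 of 20 were higher and 2 lower. Beside Ryr1, the muscle sodium channel gene Scn4a was higher with 40, 38 and 16 counts (1.41 ± 0.51, SE). Trdn, whose product triadin anchors the calcium store next to RYR1, was lower with 190, 233 and 418 counts (-0.85 ± 0.22), and so was the calcium channel subunit gene Cacna2d1 with 204, 238 and 460 (-0.93 ± 0.22). The last is expressed in many tissues. Ryr1 and Trdn, whose proteins work together, thus differed in direction, and their transcripts differed in GC content, at 58.0% and 36.8%. This pair was picked with its values in view, and a link between GC content and its directions was not tested.

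In energy metabolism 2 of 13 were higher, Ckm and the glycogen synthase gene Gys1 (39, 30 and 12 counts; log2 fold change 1.65 ± 0.56, SE). Among membrane and turnover genes, Dysf, which acts in membrane repair, was higher with 336, 430 and 210 counts (0.99 ± 0.23), as was Ky with 67, 59 and 22 (1.65 ± 0.42). Dystrophin (Dmd, 604, 664 and 1338 counts; -0.95 ± 0.21) and delta-sarcoglycan (Sgcd, 637, 735 and 1260; -0.75 ± 0.21), partners in the complex that ties the fibre to its matrix, were both lower, and 12 of 16 did not pass. Among the regulators of muscle identity, Mef2a (64, 99 and 164 counts) and Mef2c (109, 122 and 205), transcription factors used in many cell types, were lower, and Tmem8c, needed for myoblast fusion, was higher with 16, 20 and 2 counts (3.22 ± 1.05). The value of Tmem8c rests on 2 counts in IgG-IP, and the gene met the count filter only through the Flag-IP libraries. Myod1, a defining factor of muscle cells, had 4, 2 and 0 counts and Myog 3, 8 and 2, too few to be tested.

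**Figure D5:**
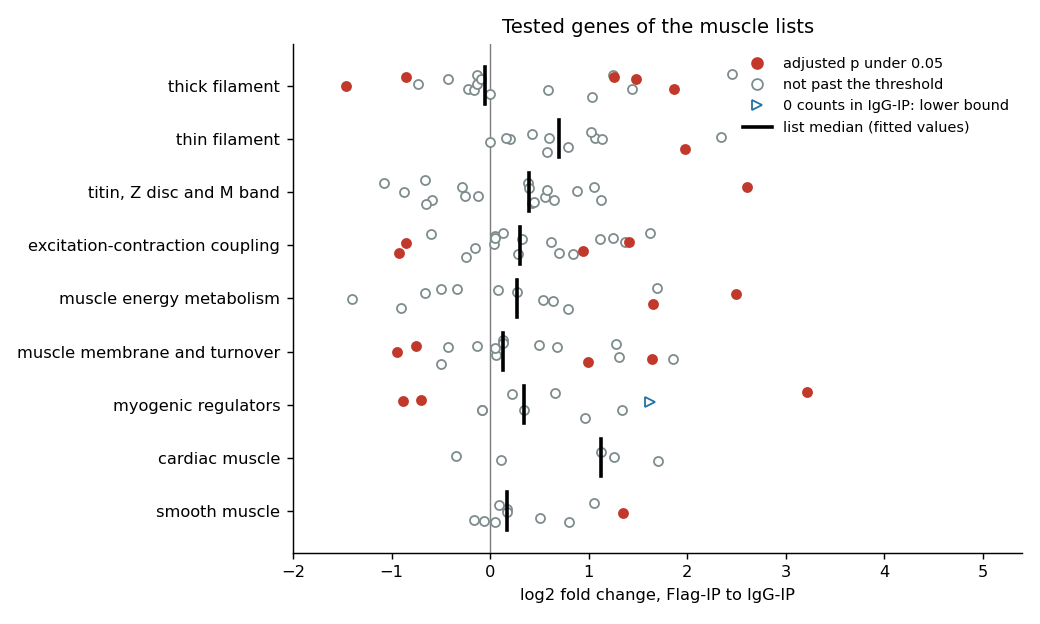
Log2 fold change of Flag-IP against IgG-IP for the tested genes of 9 muscle lists (1 circle a gene, filled where the edgeR adjusted p was under 0.05; bars are list medians; the triangle is a lower bound for a gene with 0 counts in IgG-IP). Each list spreads across or close to 0, and called genes lie on both sides in 4 of the 7 skeletal muscle lists.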

How the data were processed

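The authors deposited a table of raw read counts per Ensembl gene, with no normalization, for 2 Flag-IP libraries and 1 IgG-IP library, and its columns were matched by the sample numbers in the labels. CASAVA 1.7, Bowtie 0.12.2 and mm8 are the tools and build in the submitters' processing notes; the counting program, annotation, strand setting and read length were not given in the sources used here. No position of mm8 is printed. Spans, exon lengths and GC (of the longest transcript) come from GENCODE M21, which matched 37607 of 39179 genes. A deposited list of lipid genes, which holds 0 members, was not used. From the counts, edgeR 4.0.16 (R 4.3.3) with filterByExpr (minimum count 10), TMM factors (0.840, 0.936 and 1.27) and the quasi-likelihood test compared Flag-IP with IgG-IP over 17587 genes. The fit has 1 residual degree of freedom, a common dispersion of 0.0359 and infinite prior degrees of freedom. A standard error is the log2 fold change divided by the square root of F. Log2 ratios of single libraries use a prior count of 2. Intervals are exact 95% Poisson intervals and, like floors of 3 counts, cover counting error only. On simulated counts for this comparison, over 17587 genes, the fit recovered 85% of 200 genes changed 4-fold. The changed genes were drawn from those averaging 20 counts or more, all genes had the same dispersion, and no GC trend was simulated. The 85% therefore does not cover members with fewer counts, such as Ckm and Tnnt1, or a gene whose Flag-IP libraries lie far apart, such as Myl1. The text names all 10 members, genes overlapping them, and of each list the genes past the threshold or, failing that, those with the largest fold change and a mean of at least 20 counts. Genes named beyond that rule (Neb, Myod1, Myog, Lpl, Adipoq, Myh11 and Ucp1) were picked with their values in view. The members and lists were chosen with earlier results of these data known. Other settings were scaling by RLE, total counts or upper quartile, other filters and prior counts, DESeq2 1.42.0, a likelihood ratio test, lowess trends (span 0.3) on GC and exon length, leaving out overlapping genes and leaving out each Flag-IP library, and, added after seeing the data, trends on GC and gene span.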

Additional observations from a re-analysis of the deposited data

How the results depend on the processing

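No paired analysis was possible because the IgG-IP group holds 1 library, so the groups share fewer than 2 replicate numbers. RLE scaling and no filter changed neither the 3 higher and 1 lower members nor the direction of any of the 9. Prior counts of 0.5 and 10 changed neither, but they left each adjusted p of the members as it was, so the calls could not move. Leaving out overlapping genes also changed neither. It does not alter the counts of the members, so it cannot show whether reads were assigned to the wrong gene. The number of higher members was 0 with total-count scaling, 0 with the GC trend removed, 0 with GC and exon length and 0 with GC and gene span, and 1 (of 3 tested) with a mean of at least 50 counts, where fewer genes were tested. The number of lower members stayed at 1 in those settings. In the same order, 1.94%, 2.17%, 2.27%, 2% and 15.5% of all tested genes were called higher. Called lower were 17.1%, 2.12%, 1.95%, 1.57% and 15.7%. The share of higher genes thus fell over the whole table in every setting with 0 higher members named here. DESeq2 called 0 higher and 0 lower (1 and 0 at an unadjusted p under 0.05), with no adjusted p for 7 of 9 members. Of the 1903 genes with an adjusted p in DESeq2, 6.88% were higher and 7.62% lower. Upper-quartile scaling brought Myh4 past the threshold (adjusted p = 0.0481). Directions that turned were all of members that did not pass: Tnnt1 (-0.31 with total counts, -0.31, -0.26 and -0.55 with the trends on GC, GC and exon length, and GC and span), Myh1 (0.063 with upper-quartile scaling, 0.36 without Flag-IP 2) and Ttn (0.28 and 0.094 with the trends on GC and exon length, and GC and span). Members at least 2-fold higher numbered 1 with a mean of at least 50 counts, 1 with a prior count of 10, 1 with the GC trend removed and 1 with GC and span, and members at least 2-fold lower 1 with total counts and 1 with GC and span. Leaving out a Flag-IP library leaves no residual degrees of freedom and no test. By size the members at least 2-fold lower then numbered 0 to 1, the 1 being Myl1 without Flag-IP 1, and the log2 value ran from 1.41 to 2.07 for Tnnt3, 0.65 to 1.79 for Myh4 and -2.45 to -0.80 for Myl1.

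Of the other muscle genes, 9 were higher and 7 lower. The higher count was 0 with total counts and 0 with each of the 3 trends, and 1 with DESeq2. The lower count was 15 of 100 with total counts (where 17.1% of all tested genes were lower), 1 with each of the 3 trends, 1 with DESeq2 and 1 in the likelihood ratio test. Over all tested genes 1.94% were higher with total counts, 2% to 2.27% with the trends and 6.88% with DESeq2. Lower were 1.57% to 2.12% with the trends, 7.62% with DESeq2 and 4.27% in the likelihood ratio test. Trdn (0.090) and Sgcd (0.29) turned with GC and span removed. Why the counts moved under these settings was not tested, beyond the smaller number of genes with an adjusted p under DESeq2. Depth limits Acta1, Ckm, Tnnt3 and Tnnt1 most, with 0 to 10 counts in IgG-IP.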

Other observations

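Muscle types other than skeletal, and brown adipocyte genes, were also counted. By the same test 5.58% of all tested genes were higher and 5.77% lower. Of 10 smooth muscle genes tested, 1 was higher in the Flag-IP libraries, 0 were lower and 9 did not pass. The higher gene was Lmod1, which nucleates actin filaments in smooth muscle, with 51, 47 and 21 counts, in the library order used above, and a difference of 1.35 ± 0.45 (SE) on the log2 scale. Myh11, the smooth muscle myosin heavy chain, had 99, 106 and 79 counts (0.51 ± 0.30) and did not pass. Summed over the list, the normalized counts were 687, 663 and 593, and 8 of the 10 genes lay between the quartiles of tested protein-coding genes in counts per kilobase of span.

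Of 9 cardiac genes 5 had enough counts to be tested and 0 passed in edgeR, with 1 at an unadjusted p under 0.05 and 0 called by DESeq2, which gave an adjusted p for 1 of them. The 5 tested genes had a median log2 fold change of 1.12, with 4 of 5 above 0, and Ryr2 alone was below 0. Ryr2, the cardiac calcium release channel and a relative of Ryr1, had 335, 380 and 498 counts, differed by -0.35 ± 0.22 (SE) on the log2 scale, and had 0.726 normalized counts per kilobase of span against 1.07 for Ryr1. Of 7 brown adipocyte genes 5 were tested, 1 was higher (Prdm16, a regulator of the brown fat programme, with 339, 384 and 214 counts) and 1 was lower (Ppargc1a, a coactivator of mitochondrial genes, with 49, 70 and 118). Ucp1, the defining gene of brown fat, had 4, 4 and 2 counts.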
